A study of Mus musculus with 55 samples.

Results

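The genes described here are the nuclear genes of respiratory complexes II to V, the part of the mitochondrial machinery that carries electrons beyond complex I and makes ATP. Symbols were taken by name, as Sdha to Sdhd, Cyc1 and those that begin with Uqcr, with Cox4 to Cox8 or with Atp5, pseudogenes excluded. This gave 48 of the 22800 symbols in the gene counts, of which 4 belong to complex II, 9 to complex III, 18 to complex IV and 17 to complex V. The rule also takes in Cox7a2l, a factor of respiratory supercomplexes, and Atp5s and Atp5sl, which are not part of the core enzyme. It leaves out the subunits encoded in mitochondrial DNA and a few small proteins of the ATP synthase with other names (Usmg5, 2010107E04Rik and Atpif1), which are given further on as lists of their own.

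The study sequenced cytosolic RNA from pyramidal neurons of mouse prefrontal cortex, the cytosol of each neuron being drawn into the recording pipette and labelled as a D1 or a D2 cell, names used for types of dopamine receptor. The groups were knockout D1 cells (KO D1, 6 cells, 1 of them from an animal of 31 days and 5 from 32 days), knockout D2 cells (KO D2, 7 cells, all from 32 days), D1 cells without the knockout (WT D1, 15 cells, 28 to 34 days) and D2 cells without the knockout (WT D2, 26 cells, 29 to 35 days). Knockout cells carried Fmr1-/y, a null allele of Fmr1 in male mice, which lack the RNA-binding protein FMRP and serve as a model of fragile X syndrome. The labels say of the WT cells only that there was no knockout, and give neither their strain nor how D1 and D2 cells were told apart. The comparisons ask how the knockout cells of each type differ from WT cells, and how D1 cells differ from D2 cells. One further KO D1 cell failed quality control and entered no comparison.

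The labels do not tie cells to animals, so each group counts as 1 sample, and no p-value was computed. A difference below is the mean over cells of log2(CPM + 1) in one group minus that in the other, where CPM is the count of a gene scaled to a common total of counts per cell. A gene was measured in a comparison when it averaged 1 CPM or more and was read in 10% or more of the cells compared. A gene is called higher or lower where the difference was at least 1 or at most -1. The share of all genes called was computed over all cells, over gene-rich cells and on counts summed over each group. It was not computed for other sets of cells or other scalings, so counts given for those have no such share beside them. Total counts ranged from 260943 to 10673072 per cell and genes with a read from 1511 to 9938. The 34 cells with a read in at least 4000 genes, called gene-rich, numbered 6 of 6 in KO D1, 6 of 7 in KO D2, 9 of 15 in WT D1 and 13 of 26 in WT D2. Each difference is therefore also given over gene-rich cells. Markers of pyramidal neurons (Slc17a7, Camk2a, Neurod6, Nrgn and Neurod2) summed to 128 to 4524 CPM, above 0 in all 54 cells. In some cells markers of other cell types summed higher. WT D1 replicate 6 had 128 CPM of pyramidal and 5211 CPM of microglia markers. WT D1 replicate 9 had 200 CPM of pyramidal and 10647 CPM of astrocyte markers. Fmr1 was read in 0 of 6 KO D1, 0 of 7 KO D2, 8 of 15 WT D1 and 13 of 26 WT D2 cells. A count of 0 in 6 or 7 cells allows a share of up to 45.9% in KO D1 or 41% in KO D2 (exact Clopper-Pearson interval at 95%, counting error only).

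Complex II is succinate dehydrogenase, which oxidises succinate in the citric acid cycle and passes the electrons to ubiquinone. Complex III hands them from ubiquinol to cytochrome c, complex IV passes them from cytochrome c to oxygen, and complexes III and IV pump protons as they do so. Complex V, the ATP synthase, lets the protons flow back through its membrane ring and turns that flow into ATP. Neurons depend on this route for most of the ATP that restores ion gradients after firing. Apart from complex II, which is wholly nuclear, each of these enzymes joins nuclear subunits to a few encoded in mitochondrial DNA.

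Many nuclear respiratory genes have binding sites of the factors NRF1, GABP or YY1 in their promoters. RefSeq promoters (GRCm38.p6, 250 bases before the start to 50 after it) were found for 37 of the 48 genes, and the letters of each motif were searched on both strands. The NRF1 letters, a half-site GCGCA followed directly by its reverse complement TGCGC and so the same on both strands, were in 4 of the 37 promoters (10.8%), against 1.07% of the promoters of 27025 genes. The GABP letters CCGGAAGT were in 4 (10.8%; Atp5h, Cox8a, Uqcr11 and Uqcrh), against 4.31%, and the YY1 letters AAGATGGCG in 3 (8.11%; Atp5j, Atp5j2 and Atp5sl), against 1.64%. No promoter held letters of more than 1 of these motifs, so that 11 of 37 (29.7%) held one, against 6.76% of all genes. These are matches of letters in a window, not sites at which a factor was measured. The 4 promoters with NRF1 letters are shown because they span 3 of the 4 complexes, with those letters in capitals. They are those of Uqcrc1, a core protein of complex III (chr9:108936398-108936697, plus strand), Cox6a1, a subunit of complex IV (chr5:115348909-115349208, minus strand), Atp5g2, of the membrane ring of complex V (chr15:102670998-102671297, minus strand), and Atp5k, a small membrane subunit of complex V (chr5:108434350-108434649, minus strand).
Uqcrc1: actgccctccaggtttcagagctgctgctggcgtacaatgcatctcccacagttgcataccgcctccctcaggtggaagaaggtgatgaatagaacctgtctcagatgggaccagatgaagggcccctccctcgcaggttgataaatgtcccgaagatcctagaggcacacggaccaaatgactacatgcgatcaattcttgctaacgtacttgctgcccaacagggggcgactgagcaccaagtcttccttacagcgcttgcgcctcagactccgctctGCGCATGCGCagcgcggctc
Cox6a1: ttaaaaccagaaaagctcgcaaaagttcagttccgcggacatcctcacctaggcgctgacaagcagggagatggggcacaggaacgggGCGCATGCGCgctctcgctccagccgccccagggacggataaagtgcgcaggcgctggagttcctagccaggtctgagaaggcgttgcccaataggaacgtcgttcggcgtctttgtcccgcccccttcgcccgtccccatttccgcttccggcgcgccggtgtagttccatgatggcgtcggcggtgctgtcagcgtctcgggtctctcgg
Atp5g2: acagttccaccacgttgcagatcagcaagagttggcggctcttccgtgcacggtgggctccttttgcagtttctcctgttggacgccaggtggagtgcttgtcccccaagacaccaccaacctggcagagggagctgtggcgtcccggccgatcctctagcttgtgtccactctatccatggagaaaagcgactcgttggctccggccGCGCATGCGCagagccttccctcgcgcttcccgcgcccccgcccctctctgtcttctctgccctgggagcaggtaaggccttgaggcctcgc
Atp5k: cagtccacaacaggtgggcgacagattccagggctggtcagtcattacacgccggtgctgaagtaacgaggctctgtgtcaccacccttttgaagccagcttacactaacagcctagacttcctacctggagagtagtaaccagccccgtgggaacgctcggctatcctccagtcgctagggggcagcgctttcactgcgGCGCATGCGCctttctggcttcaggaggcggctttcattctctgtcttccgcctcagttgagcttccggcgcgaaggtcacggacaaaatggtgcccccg
The letters lie 162 to 153 bases before the start in Cox6a1, 42 to 33 before it in Atp5g2 and 50 to 41 before it in Atp5k, and after the start in Uqcrc1.

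The subunit mRNAs were among the more abundant transcripts of these neurons. Of the 48 genes, 35 were read in 40 or more of the 54 cells, or 31 when each cell was thinned to 250000 counts. None was read in all 54 cells, 16 were read in all 34 gene-rich cells, and 40 in at least 17 of those. Levels between genes are given as counts per kilobase of merged exon scaled to a common total within each cell, called TPM-like here, as mean ± SD over 54 cells. On this scale 36 of the 48 genes lay above the 95th percentile of all genes. The SD over cells was about as large as the mean for most genes, so that neighbours in the order of levels did not differ beyond it.

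Within complex IV the general forms of its subunits were read and the forms known from heart, muscle, lung or testis were not, or nearly not. Cox8a, a small subunit of the membrane part (ENSMUSG00000035885, chr19:7215153-7217616, minus strand), had the highest level of all 48 genes, 4491 ± 3909 TPM-like, with a median of 3162 and a read in 53 cells. Cox6a1 followed at 2308 ± 2906 (52 cells), and Cox4i1, which binds ATP as a regulator of the enzyme, at 1693 ± 1298 (51 cells; chr8:120668222-120674207, plus strand). Cox6b1, which links the 2 monomers of the enzyme, had 1465 ± 1472 and Cox7a2 had 1347 ± 1311 TPM-like. The alternative forms Cox6b2 and Cox8c, both known from testis, had no read in any cell, which allows a share of cells of up to 6.6%. Cox4i2 and Cox8b had a read in 1 cell each (WT D1 in both cases), and Cox6a2 in 2 cells. Cox7a1 was read in 2 cells, both of them KO D2. Cox7b2 was read in 5 cells (1 KO D1, 2 KO D2, 1 WT D1 and 1 WT D2), with a mean of 12.1 TPM-like. In each of these pairs the general form was the higher one by a wide margin. Cox6c was at 434, Cox7b at 700, Cox7c at 442, Cox5a at 618 and Cox5b at 531 TPM-like. Cox7a2l, the supercomplex factor related to Cox7a2, was lower, at 213 ± 290 with a read in 40 cells.

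**Figure D1:**
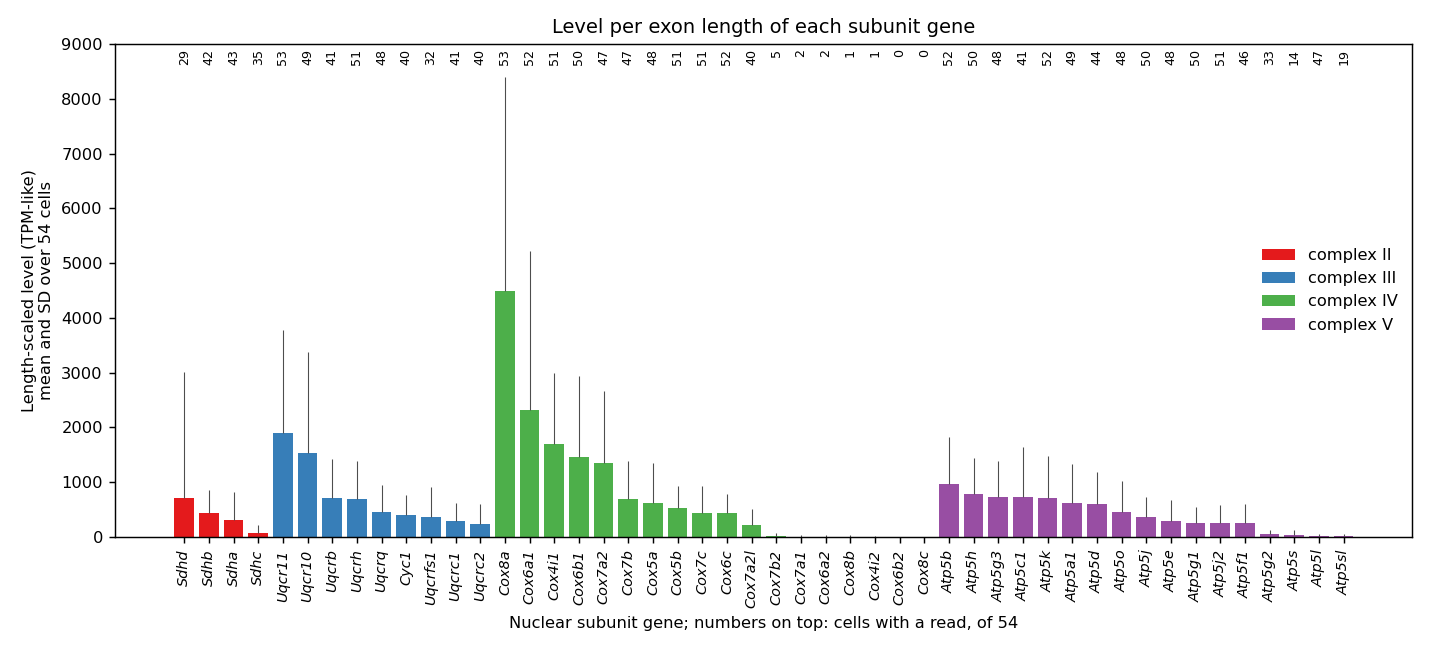
Mean level of each gene over 54 cells in counts per kilobase of merged exon scaled to a common total per cell (TPM-like), grouped by complex, with the SD over cells drawn upward and the number of cells with a read above each bar. Cox8a is the highest at 4491 TPM-like, and the tissue forms of complex IV stand at or near 0.

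In complex III the 2 small subunits Uqcr11 (chr10:80402997-80406830, minus strand) and Uqcr10 were the highest, at 1902 ± 1883 and 1538 ± 1839 TPM-like. The subunits that carry out the chemistry or form the bulk of the enzyme were lower per length, with cytochrome c1 (Cyc1) at 402 ± 370 and the core proteins Uqcrc1 and Uqcrc2 at 293 and 241. Exons of Uqcrc2 share 504 bases with Pdzd9, so its reads may include reads of that gene. In complex V the catalytic beta subunit Atp5b (ENSMUSG00000025393, chr10:128083273-128090391, plus strand) was highest, at 958 ± 861 (52 cells), followed by the stalk subunit Atp5h at 787 ± 649. Of the 3 genes that encode the same mature protein of the membrane ring, Atp5g3 had 726 ± 668, Atp5g1 had 250 ± 294 and Atp5g2 had 50.7 ± 68.8 TPM-like. Within single cells Atp5g3 was the highest of the 3 per length in 42 cells, Atp5g1 in 8 and Atp5g2 in 1. Merged exons come to 4912 bases in Atp5g1 and 2181 in Atp5g3. Mean CPM, not scaled by length, was 373 for Atp5g1 and 488 for Atp5g3. In complex II, Sdhd had the highest mean (719 ± 2284) but a median of 3.0, a read in 29 cells and a top value of 16492, so that its mean rests on few cells. Sdhb had 440 ± 424 (42 cells), Sdha 315 ± 512 (43 cells) and Sdhc 70.9 ± 140 (35 cells). Merged exon length depends on rare transcripts (Atp5l has 6443 bases of exon but 544 in its longest coding transcript). By the longest coding transcript Cox8a, Cox4i1, Cox6a1 and Uqcr11 led, Atp5g3 was the highest of complex V, and Sdhb the highest of complex II. Copies elsewhere in the genome with at least 95% identity were found for Atp5l (8), Atp5h (3), Uqcrb (3), Atp5k (1) and Atp5o (1), and reads of these 5 genes may be split with those copies. Exons of 13 of the 48 genes overlap another gene, in Atp5o by 702 bases on the opposite strand and 243 on its own. The sources used here do not say whether counting used strand.

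Summed over the 48 genes, the subunit mRNAs took 2875 CPM in the lowest and 15014 in the highest KO D1 cell (median 7005), and 4741 to 44777 in KO D2 (median 19790). They took 5843 to 22862 CPM in WT D1 cells (median 11154) and 4722 to 29652 in WT D2 cells (median 12593). The 4 groups overlapped, and KO D1 and KO D2 lay at opposite ends, with all 6 KO D1 cells under the KO D2 median. The counts summed over each group came to 9091 CPM in KO D1 (exact Poisson interval at 95%, 9058 to 9124), 23111 in KO D2 (23065 to 23157), 12544 in WT D1 (12515 to 12573) and 11728 in WT D2 (11706 to 11750). These intervals cover counting error only, and reads carry no molecular identifiers. One KO D2 cell, replicate 2, held the 44777 CPM, against 20585 in the next, and without it the KO D2 sum was 16651. Leaving out single KO D1 cells gave 7651 to 9830 CPM. Among gene-rich cells the medians were 7005 in KO D1, 15504 in KO D2, 7869 in WT D1 and 8145 in WT D2, so that the WT medians were lower there than over all cells.

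**Figure D2:**
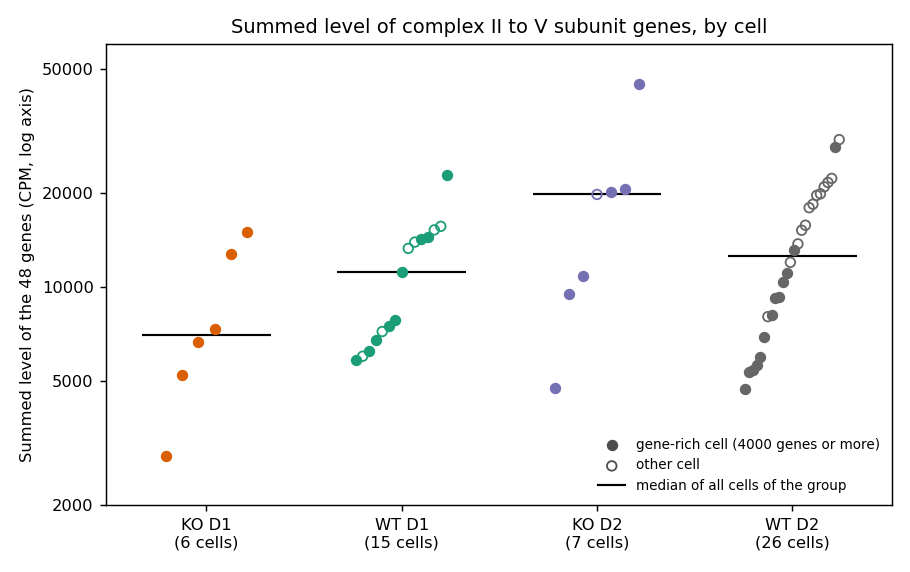
Summed level of the 48 genes in each cell (CPM, log axis), by group, with gene-rich cells filled, other cells open and a line at the group median. KO D1 cells lie between 2875 and 15014 CPM, KO D2 cells between 4741 and 44777, WT D1 cells between 5843 and 22862 and WT D2 cells between 4722 and 29652.

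In D2 neurons the genes of complexes II to V were mostly higher in knockout than in WT cells. Of 41 measured genes 26 (63.4%) were higher and 0 lower in KO D2 than in WT D2, while 36.4% of the 11222 genes measured were higher and 6.91% lower. Their median difference was 1.3, against 0.56 over all genes, and 39 of the 41 differences were above 0. The share called higher was thus above that of all genes. Over gene-rich cells 19 (46.3%) were higher and 1 lower, against 14.6% and 31.9% of all genes, with a median of 0.79 against -0.39. Without KO D2 replicate 2 the counts were 19 higher and 1 lower over all cells (median 0.93), and 9 higher and 2 lower over gene-rich cells (median 0.59). The shares of all genes called were not computed without that cell. The log2 summed level was higher by 0.33 (13.88 ± 1.04 in KO D2, 13.55 ± 0.80 in WT D2, SD over 7 and 26 cells), by 0.79 over gene-rich cells and by 0.07 without replicate 2, and lay at -0.11 with the normalized values that the authors deposited. So 4 of 7 KO D2 cells were above the WT D2 median and 1 above the highest WT D2 cell.

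All 4 enzymes took part, and no difference between them was tested. Over all cells 3 of 4 genes were higher in complex II, 8 of 9 in complex III, 6 of 11 in complex IV and 9 of 17 in complex V. Over gene-rich cells the counts were 2 of 4, 4 of 9, 5 of 11 and 8 of 17, close to each other as shares. The 5 supernumerary subunits of complex III, which surround the catalytic core, were all higher over all cells (median 2.09), and 3 of them over gene-rich cells (median 1.13). Within complex V, 3 of 4 genes of the peripheral stalk, which holds the catalytic head still, were higher over all cells (median 1.88) and also 3 of 4 over gene-rich cells (1.33). The 3 genes of the membrane part were all higher over all cells, and 2 of them over gene-rich cells. Of the 3 genes of the proton-carrying ring 0 were called over all cells (median 0.03) and 1 was higher over gene-rich cells (0.69).

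Sdhd, a membrane anchor of complex II (ENSMUSG00000000171, chr9:50596357-50603812, minus strand), had a lowest, median and highest value of 0, 407 and 855 CPM in KO D2 cells and of 0, 0.155 and 6128 CPM in WT D2 cells. It was read in 6 of 7 KO D2 and 13 of 26 WT D2 cells, so the groups differed mainly in the share of cells without reads, and the highest cell of all was WT D2. Its difference was 3.74 (3.57 over gene-rich cells and 0.95 on summed counts). Sdhb, the iron-sulfur subunit (ENSMUSG00000009863, chr4:140961203-140979193, plus strand), had 156, 414 and 1029 CPM in KO D2 cells and 0, 197 and 834 CPM in WT D2 cells. Each KO D2 cell and 20 of 26 WT D2 cells had reads of it, and the groups overlapped over most of their range. The difference was 3.19 over all cells, 1.24 over gene-rich cells and 1.18 on summed counts. Cyc1 (ENSMUSG00000022551, chr15:76343523-76346260, plus strand) had 216, 323 and 623 CPM in KO D2 cells and 0, 156 and 952 CPM in WT D2 cells, with reads in 7 of 7 and 19 of 26. Its difference of 3.03 shrank to 0.67 over gene-rich cells and was 0.98 on summed counts. For this gene, too, WT D2 cells without a read set much of the difference.

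Among the supernumerary subunits of complex III, Uqcr11 had 61.6, 563 and 1407 CPM in KO D2 cells  and 1.5, 196 and 1747 CPM in WT D2 cells (difference 1.36, or 1.71 over gene-rich cells). Uqcrh, the hinge protein between cytochrome c1 and cytochrome c, had 151, 355 and 916 CPM in KO D2 cells and 0, 133 and 1041 CPM in WT D2 cells (2.19, or 1.13 over gene-rich cells). Both groups spanned a similar range, with the KO D2 medians higher. Of the peripheral stalk, Atp5o had 112, 336 and 2022 CPM in KO D2 cells and 0, 137 and 1713 CPM in WT D2 cells (2.46, or 1.54 over gene-rich cells; its overlap with other exons is given above). Atp5f1 had 16.3, 341 and 875 CPM in KO D2 cells and 0, 90.7 and 2523 CPM in WT D2 cells (2.62, or 1.12 over gene-rich cells), and its exons share 337 bases with another gene. At the other end stood Atp5h, with 0, 362 and 1414 CPM in KO D2 cells and 0, 311 and 1427 CPM in WT D2 cells. Its difference of -0.56 was 0.67 without KO D2 replicate 5, the only KO D2 cell under 4000 genes, and 0.77 over gene-rich cells. Atp5g3 had 0.436, 574 and 2465 CPM in KO D2 cells and 0, 495 and 1530 CPM in WT D2 cells (-0.07, or 1.3 over gene-rich cells). Atp5g2 had 0, 9.48 and 41.5 CPM in KO D2 cells and 0, 6.22 and 142 CPM in WT D2 cells (0.03, or 0.69). For these 3 genes neither group stood above the other over all cells. The 1 gene called lower over gene-rich cells was Atp5c1, the gamma subunit of the rotating shaft (-2.11), with a median of 470 CPM in gene-rich KO D2 cells and 416 CPM in gene-rich WT D2 cells, and a lowest value of 0 CPM in the KO D2 and 54.7 CPM in the WT D2 cells.

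The KO D2 cells were all of 32 days, as were 2 of the WT D2 cells. Between cells of that age the median difference was 1.67 (0.50 over all genes) and the summed level was higher by 0.73, and against WT D2 cells of 31 and 32 days the median was 1.68. Marker genes of other cell types were counted in the same way, beside 36.4% of all genes higher and 6.91% lower over all cells. Of 5 measured oligodendrocyte markers 3 were higher in KO D2 (summed level 99.4 to 11094 CPM in KO D2 and 0 to 11147 CPM in WT D2 cells), of 5 interneuron markers 2 were higher (0.654 to 318 CPM in KO D2, 0 to 832 CPM in WT D2), and of 4 astrocyte markers 2 were lower (25.5 to 797 CPM in KO D2, 0 to 9346 CPM in WT D2). Of 7 microglia markers 1 was higher and 2 were lower (0.13 to 2144 CPM in KO D2, 0 to 3051 CPM in WT D2). Endothelial markers reached at most 7.08 CPM in any cell. Over gene-rich cells 1 oligodendrocyte marker was higher and 1 lower, and 1 microglia marker was higher and 2 lower. There 2 interneuron markers and 1 astrocyte marker were higher, while 14.6% of all genes were higher and 31.9% lower. The part of these RNAs in the differences was not tested. In the cytosol of a cell, a higher share of these mRNAs and a lower share of others cannot be told apart.

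**Figure D3:**
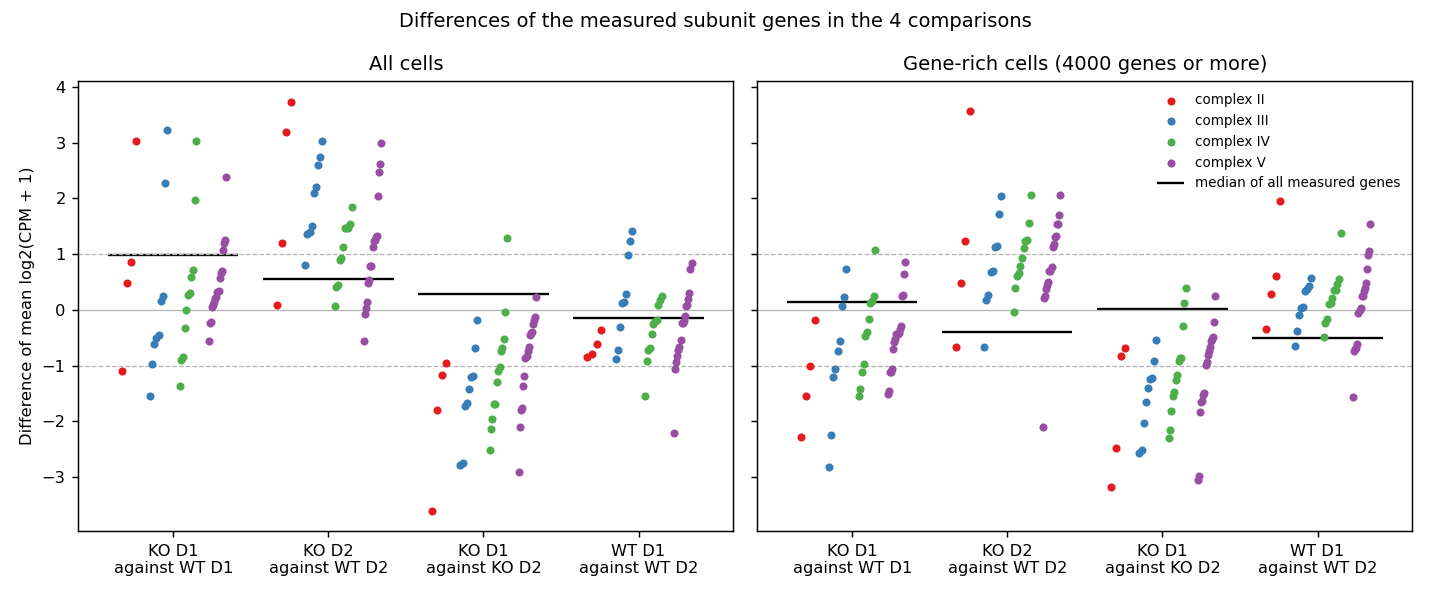
Difference of mean log2(CPM + 1) of each measured gene in the 4 comparisons, by complex, over all cells (left) and gene-rich cells (right), with a black line at the median of all measured genes and dashed lines at 1 and -1. In KO D2 against WT D2 26 of 41 genes lie at or above 1, and in KO D1 against KO D2 24 of 43 lie at or below -1.

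In D1 neurons the sign of the median difference of these genes depended on which cells were compared. That median lay below the median of all genes over all cells, over gene-rich cells and on summed counts. Of 41 measured genes 9 (22%) were higher and 3 (7.32%) lower in KO D1 than in WT D1, while 49.6% of the 10792 genes measured were higher and 8.02% lower. The share higher was thus below that of all genes and the share lower close to it. The median difference was 0.25, against 0.98 over all genes. Over gene-rich cells 1 gene was higher and 15 (36.6%) lower, against 29.4% and 22.8% of all genes, with a median of -0.53 against 0.14. On counts summed over each group 0 were higher and 7 (17.1%) lower, against 25.1% and 26.7%, with a median of -0.37 against -0.04. The median over all cells was also below 0 with the normalized values of the authors (-0.07) and without KO D1 replicate 3 (-0.11), and it was 0.65 without replicate 1. The number lower was 0 without KO D1 replicate 5, 5 without replicate 4, 6 without replicate 2 or 6, and 8 without replicate 3. No share of all genes was computed for these sets of cells. The log2 summed level was below 0 under each of these settings. It was -0.51 over all cells (12.82 ± 0.87 in KO D1, 13.32 ± 0.63 in WT D1, SD over 6 and 15 cells) and -0.43 over gene-rich cells. In each complex at least 3 genes were lower over gene-rich cells, 3 of 4 in complex II, 4 of 9 in complex III, 3 of 11 in complex IV and 5 of 17 in complex V.

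Cyc1 had 91.1, 221 and 401 CPM (lowest, median and highest) in KO D1 cells and 0, 98.5 and 787 CPM in WT D1 cells, with reads in 6 of 6 and 8 of 15. Its difference was 3.22 over all cells, 0.22 over gene-rich cells and -0.95 on summed counts. Sdhb had 99.4, 249 and 555 CPM in KO D1 cells and 0, 119 and 982 CPM in WT D1 cells, with reads in 6 of 6 and 9 of 15, and its difference was 3.03 over all cells, -0.18 over gene-rich cells and -0.23 on summed counts. In both genes the highest cells were WT D1, and the cells without a read were all WT D1. Cox7a2l had 49.4, 106 and 263 CPM in KO D1 cells and 0, 16.7 and 203 CPM in WT D1 cells. Its difference of 3.02 was 1.08 over gene-rich cells, which made it the 1 gene called higher there, and 0.52 on summed counts.

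Uqcrh had the lowest difference, -1.54, with 4.53, 64.1 and 335 CPM in KO D1 cells and 6.38, 199 and 932 CPM in WT D1 cells. It was -1.06 over gene-rich cells and -0.91 without KO D1 replicate 5. Cox6a1 had 0, 255 and 374 CPM in KO D1 cells and 63.2, 343 and 840 CPM in WT D1 cells, a difference of -1.37. That value rests on KO D1 replicate 5, the cell without a read, and was -0.07 without it. Sdhc, the other membrane anchor of complex II, had 0, 2.73 and 51.7 CPM in KO D1 cells and 0, 7.19 and 370 CPM in WT D1 cells. Its difference was -1.10 over all cells (-1.78 without KO D1 replicate 1 and -0.64 without replicate 6), -2.28 over gene-rich cells and -2.62 on summed counts. The catalytic flavoprotein Sdha, with 0, 138 and 497 CPM in KO D1 cells and 0, 173 and 2255 CPM in WT D1 cells, differed by 0.87 over all cells and -1.0 over gene-rich cells. Cox8a had 44.6, 228 and 575 CPM in KO D1 cells and 0, 509 and 3496 CPM in WT D1 cells (-0.89, or -1.12 over gene-rich cells). For Sdhc, Sdha and Cox8a the KO D1 cells lay within the WT D1 range and the highest values were those of WT D1.

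Only 1 KO D1 cell shared its age, 31 days, with WT D1 cells (3 cells). Against those its median difference was 2.37 (0 over all genes) and its log2 summed level was higher by 0.62. That cell, replicate 3, had the highest summed level of the KO D1 cells. The other KO D1 cells were of 32 days, an age of no WT D1 cell, so the knockout and the age cannot be told apart here. The marker counts over all cells stand beside 49.6% of all genes higher and 8.02% lower. Of the 5 measured astrocyte markers 3 were lower in KO D1 (summed level 0 to 965 CPM in KO D1 and 0 to 10647 CPM in WT D1 cells), of 7 microglia markers 2 were lower (0.453 to 1393 CPM in KO D1, 0 to 6592 CPM in WT D1), and of 5 pyramidal markers 4 were higher and 1 lower (666 to 1656 CPM in KO D1, 128 to 2909 CPM in WT D1). Of the 7 microglia markers 5 were lower both over gene-rich cells (median -1.58) and on summed counts (-1.80). Of all genes 22.8% were lower over gene-rich cells and 26.7% on summed counts. Of the astrocyte markers 2 were lower over gene-rich cells and 3 on summed counts. Their part in the differences was not tested.

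Between knockout cells the genes of complexes II to V were mostly lower in D1 than in D2 neurons. Of 43 measured genes 1 (2.33%) was higher and 24 (55.8%) lower in KO D1 than in KO D2, while 32.9% of the 10990 genes measured were higher and 21% lower. The median difference was -1.17, against 0.29 over all genes, and 2 genes, Cox7a2l and Atp5a1, had a difference above 0. Over gene-rich cells 0 were higher and 23 (53.5%) lower, against 27.6% and 26.1%, with a median of -1.22 against 0.02. On summed counts 1 (Uqcrc1, 1.19) was higher and 32 (74.4%) lower, against 36.7% and 24%. The log2 summed level was lower by 1.07 in KO D1 (12.82 ± 0.87 in KO D1, 13.88 ± 1.04 in KO D2, SD over 6 and 7 cells). The number higher was 0 without KO D2 replicate 4 or 5 and 2 without KO D1 replicate 1 or 5. The number lower was 15 without KO D1 replicate 1 (median -0.71) and 31 without KO D2 replicate 4, and over gene-rich cells without KO D2 replicate 2 it was 19 (median -0.90). At 32 days, with 5 KO D1 and 7 KO D2 cells, the median was -1.51 and 3 of 43 genes were above 0.

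All 4 complexes took part, with 3 of 4 genes lower in complex II, 7 of 9 in complex III, 8 of 13 in complex IV and 6 of 17 in complex V. All 5 supernumerary subunits of complex III were lower (median -1.73), and 3 of 4 of the peripheral stalk of complex V. Sdhd had 0, 25 and 256 CPM in KO D1 cells and 0, 407 and 855 CPM in KO D2 cells. Its difference was -3.61, and -2.90 to -4.80 when single cells were left out. Atp5o, which joins the stalk to the catalytic head (ENSMUSG00000022956, chr16:91925214-91931687, minus strand), had 4.84, 89.7 and 206 CPM in KO D1 cells and 112, 336 and 2022 CPM in KO D2 cells. The 2 ranges overlapped between 112 and 206 CPM, and the difference was -2.92 (-2.98 over gene-rich cells, -3.20 on summed counts). Uqcrb, which binds ubiquinone in complex III (ENSMUSG00000021520, chr13:66900617-66905378, minus strand), had 0, 69.4 and 360 CPM in KO D1 cells and 0, 401 and 996 CPM in KO D2 cells. Its difference of -2.78 was -1.84 without KO D1 replicate 5 and -4.02 without KO D2 replicate 4, and cells without reads were found in both groups. Uqcrb has 3 near-identical copies in the genome, so its values are uncertain.

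Uqcrh (ENSMUSG00000063882, chr4:116066965-116075071, minus strand) had 4.53, 64.1 and 335 CPM in KO D1 cells and 151, 355 and 916 CPM in KO D2 cells (-2.75, or -2.56 over gene-rich cells). Cox6b1 had 0, 115 and 656 CPM in KO D1 cells and 56.6, 453 and 1864 CPM in KO D2 cells (-2.51, or -2.29 over gene-rich cells). Cox8a had 44.6, 228 and 575 CPM in KO D1 cells and 217, 487 and 2443 CPM in KO D2 cells (-1.69, or -1.55 over gene-rich cells). In these 3 genes the lowest KO D2 cell lay above the lowest KO D1 cell and the highest KO D2 cell above the highest KO D1 cell, with overlap between. The catalytic Atp5b differed less, with 208, 680 and 1374 CPM in KO D1 cells and 131, 974 and 2054 CPM in KO D2 cells (-0.40). Cox7a2l was the exception, with 49.4, 106 and 263 CPM in KO D1 cells and 0, 94.2 and 668 CPM in KO D2 cells. Its difference of 1.29 was 1.96 without KO D2 replicate 2, 0.40 without KO D2 replicate 5 or over gene-rich cells, and -0.84 on summed counts. Atp5a1, the alpha subunit of the catalytic head, had 16, 214 and 884 CPM in KO D1 cells and 0, 211 and 1638 CPM in KO D2 cells (0.22, or -1.0 over gene-rich cells). Cox7a2 had 72.6, 282 and 523 CPM in KO D1 cells and 0, 484 and 1411 CPM in KO D2 cells (-0.03, or 0.11). The differences of Cox7a2l, Atp5a1 and Cox7a2 near or above 0 thus each included a KO D2 cell with no read of the gene.

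**Figure D4:**
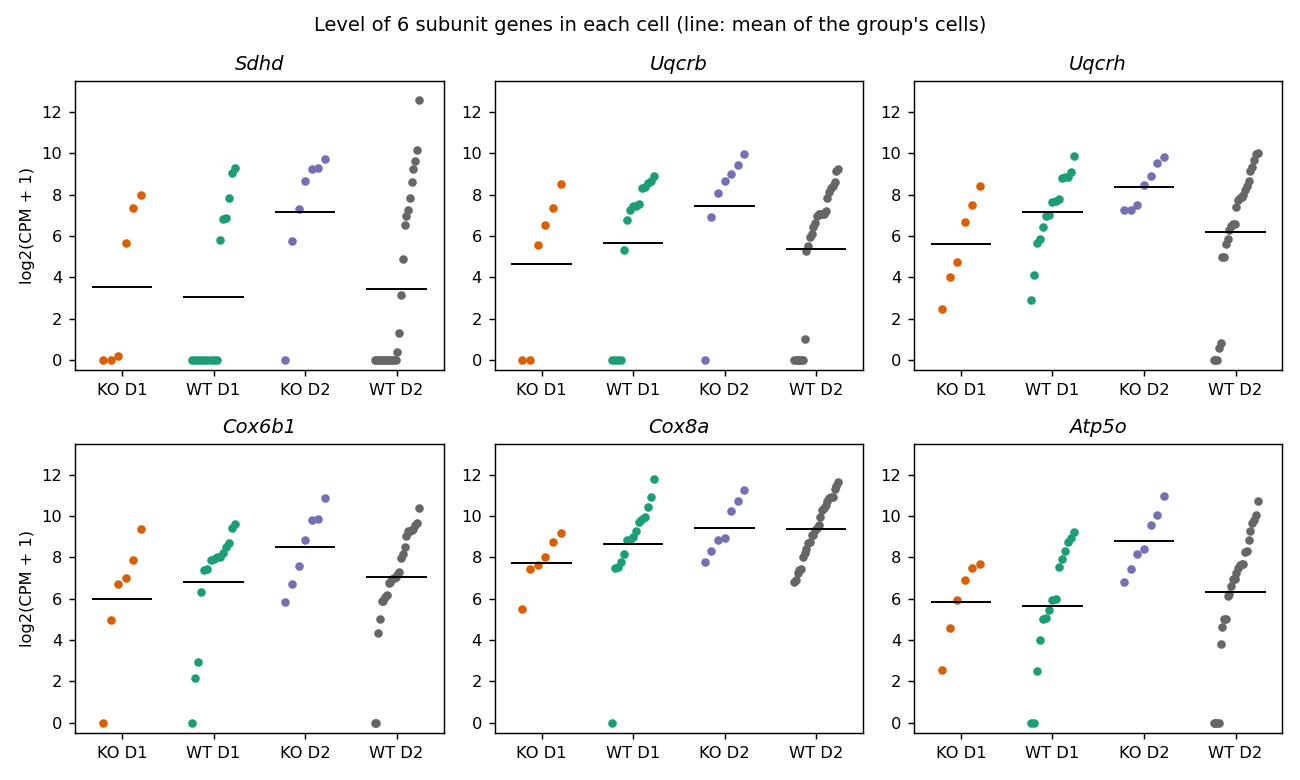
log2(CPM + 1) of Sdhd, Uqcrb, Uqcrh, Cox6b1, Cox8a and Atp5o in each cell, by group, with a line at the group mean. In all 6 genes the mean of the KO D1 cells is below that of the KO D2 cells, with differences of -1.69 (Cox8a) to -3.61 (Sdhd).

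Of the markers of other cells, 3 of 4 measured oligodendrocyte markers were lower in KO D1 (summed level 0 to 2433 CPM in KO D1 and 99.4 to 11094 CPM in KO D2), as were 3 of 3 interneuron markers (0 to 17 CPM in KO D1, 0.654 to 318 CPM in KO D2). Over gene-rich cells 2 of 4 oligodendrocyte markers were lower and 1 higher, and 3 of 3 interneuron markers were lower. Of all genes 32.9% were higher and 21% lower over all cells, and 27.6% and 26.1% over gene-rich cells. The oligodendrocyte marker Mog and the interneuron marker Vip had no read in either group. The part of these RNAs in the lower subunit levels was not tested. The KO D1 and KO D2 cells are the same ones that were set against the WT cells above, so the comparisons share cells.

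Without the knockout, D1 and D2 neurons differed in few of these genes. Of 41 measured genes 2 (4.88%) were higher and 3 (7.32%) lower in WT D1 than in WT D2, while 9.21% of the 11059 genes measured were higher and 13.2% lower, so that both shares were below those of all genes. The median difference was -0.24, against -0.14 over all genes, and over gene-rich cells it was 0.24 against -0.50. Over gene-rich cells Sdhd (1.95), Atp5g2 (1.53), Cox7a2l (1.38) and Atp5b (1.06) were higher and Atp5c1 (-1.57) lower, against 11.3% and 34.6% of all genes. On summed counts 1 gene, Atp5sl (1.25), was higher and 0 lower, against 17.8% and 23.3%. The log2 summed level differed by -0.23 over all cells (13.32 ± 0.63 in WT D1, 13.55 ± 0.80 in WT D2, SD over 15 and 26 cells) and by 0.22 over gene-rich cells. Within single ages the median was -1.01 at 29 days, 0.51 at 30 days, 0.62 at 31 days and -0.60 at 34 days. Over all genes the medians at these ages were -0.86, -0.003, 1.35 and 0. The direction of the median was thus not the same at each age. The log2 summed level was lower in WT D1 at each of these ages, by -0.26, -0.13, -0.54 and -0.48. Without the cells of 1 age the number higher was 2 or 3, or 5 without those of 29 days. The number lower was 10 without those of 30 days, 8 without those of 31 or 34 days, 6 without those of 29 days, 5 without those of 28 or 35 days and 4 without those of 32 or 33 days.

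Uqcr10, a small subunit of complex III, had 0, 203 and 750 CPM in WT D1 cells and 0, 117 and 1781 CPM in WT D2 cells (1.42, 0.84 without the cells of 30 days and 0.05 over gene-rich cells). Uqcrc1 had 0, 351 and 1412 CPM in WT D1 cells and 0, 81.3 and 1671 CPM in WT D2 cells (1.23, 0.27 without the cells of 31 days, 2.30 without those of 29 days and 0.34 over gene-rich cells). Uqcrh had 6.38, 199 and 932 CPM in WT D1 cells and 0, 133 and 1041 CPM in WT D2 cells (0.98, -0.37 over gene-rich cells). The ranges of the groups overlapped for all 3. On the lower side Atp5g3 had 0, 214 and 1271 CPM in WT D1 cells, with reads in 11 of 15, and 0, 495 and 1530 CPM in WT D2 cells, with reads in 25 of 26 (-2.21, -0.70 over gene-rich cells and 0.01 on summed counts). Cox7a2 had 0, 128 and 1036 CPM in WT D1 cells and 0, 254 and 1608 CPM in WT D2 cells (-1.55, -0.93 without the cells of 30 days and -0.17 over gene-rich cells). Atp5h had 0, 231 and 572 CPM in WT D1 cells and 0, 311 and 1427 CPM in WT D2 cells (-1.06, -0.71 without the cells of 28 days and 0.24 over gene-rich cells). None of the 5 genes called over all cells was called over gene-rich cells. Of 7 microglia markers 3 were higher and 1 lower in WT D1, and of 5 astrocyte markers 2 were higher. Their summed ranges are given above. Of all genes 9.21% were higher and 13.2% lower. The part of these markers was not tested.

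Across cells the nuclear subunits of complexes II to V and those of complex I, the NADH dehydrogenase, kept a close ratio. The summed CPM of the 48 genes over that of 37 complex I genes had a median of 2.12 in KO D1, 1.74 in KO D2, 1.97 in WT D1 and 1.92 in WT D2. In the 34 gene-rich cells the ratio ranged from 1.2 to 2.34, a 1.95-fold span, while the summed CPM of the 48 genes spanned 15.6-fold. The highest ratio of all 54 cells was 12.1, in WT D1 replicate 6, against 3.53 in the next. That cell had 626989 counts, reads in 2301 genes and 44.8% of its counts from mitochondrially encoded genes. Spearman's rho between the 2 sums was 0.94 in KO D1, 0.96 in KO D2, 0.77 in WT D1, 0.93 in WT D2 and 0.96 over the 34 gene-rich cells. These are descriptions over cells, in which both sums come from the same library and share its total.

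**Figure D5:**
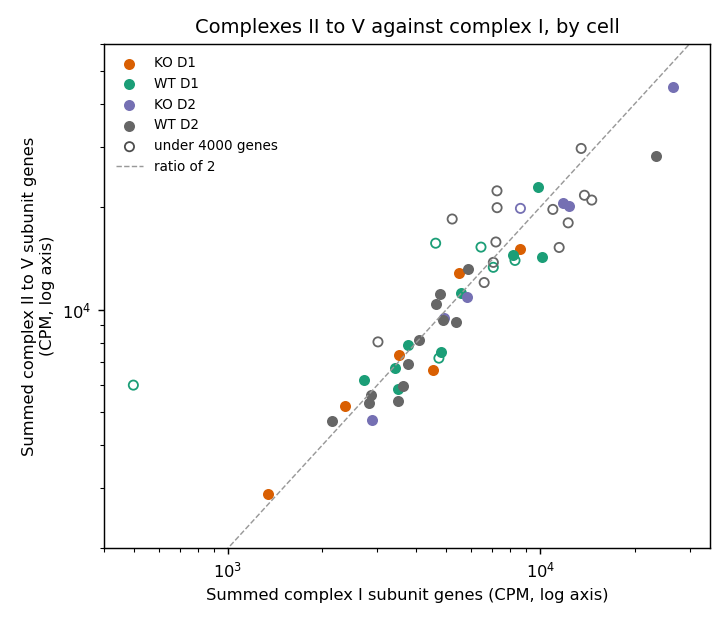
Summed CPM of the 48 genes against the summed CPM of 37 complex I genes in each cell, both on log axes, by group, with open symbols for cells with a read in under 4000 genes and a dashed line at a ratio of 2. The gene-rich cells lie at ratios of 1.2 to 2.34 over a 15.6-fold range of the summed CPM, those of KO D2 all under the line. Of the open cells, 1 WT D1 cell stands furthest off it, at a ratio of 12.1.

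The median cell drew 7.06% of the counts of the 48 genes from complex II, 18.7% from complex III, 30.9% from complex IV and 40.4% from complex V. Over the gene-rich cells rho was 0.84 between the sums of complexes III and IV, 0.80 between III and V and 0.76 between IV and V. Complex II, the enzyme shared with the citric acid cycle, went less with the others, at 0.44 to 0.51. Its sum rests on 4 genes, each read in 29 to 43 of the 54 cells. In gene-rich WT D1 cells its rho with complex V was 0.62, against 0.57 between III and V. The sum of the mitochondrially encoded subunits of complexes III to V had a rho of 0.08 with the nuclear sum over the gene-rich cells, made up of -0.31 in KO D1, -0.26 in KO D2, 0.52 in WT D1 and 0.05 in WT D2. Over all 54 cells it was 0.32. There were between 0.0253 and 35.5 such reads per nuclear read over the 54 cells. Among pairs of the 40 genes used, rho had a median of 0.37 over 780 pairs, with 94.2% above 0, while pairs among 7347 genes had a median of 0.03. Pairs within a complex had a median of 0.43 and pairs between complexes 0.34.

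The genes differed in how closely they went with the rest. The median rho of a gene with the others was highest for Uqcr11 (0.60), Cox6c (0.56) and Cox7b (0.56), which are small subunits without a catalytic part. It was lowest for Sdha (0.04), Uqcrc1 (0.07), Sdhc (0.09), Cyc1 (0.16) and Uqcrc2 (0.21). The 11 genes of catalytic, redox-active, core or catalytic head subunits had a median of 0.27, and the other 29 had 0.49. Transcript length moved with this measure: across the 40 genes its rho with the length of the longest coding transcript was -0.60, and with mean CPM 0.22. The part of length and depth in this order was not tested.

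Genes around these enzymes were described in the same way, from lists chosen by function. Their counts are to be read against the shares of all genes called over all cells, 36.4% higher and 6.91% lower in KO D2 against WT D2, 49.6% and 8.02% in KO D1 against WT D1, 32.9% and 21% in KO D1 against KO D2, and 9.21% and 13.2% in WT D1 against WT D2. Over gene-rich cells those shares were 14.6% and 31.9% in KO D2 against WT D2. They were 29.4% and 22.8% in KO D1 against WT D1 and 27.6% and 26.1% in KO D1 against KO D2. In WT D1 against WT D2 they were 11.3% and 34.6%. Complex I followed complexes II to V in the direction of the comparisons with KO D2 cells. In KO D2 against WT D2 26 of 36 measured genes were higher and 1 lower (median 1.84), and over gene-rich cells 15 higher and 1 lower (0.75), led by the iron-sulfur subunit Ndufs8 (4.11) and by Ndufs4 (3.33). In KO D1 against KO D2 1 was higher and 18 lower (-0.99), and over gene-rich cells 1 higher and 22 lower (-1.28), with Ndufs8 (-3.39) and Ndufb3 (-3.29) lowest. In KO D1 against WT D1 13 were higher and 3 lower, a share higher that is below the 49.6% of all genes, with a median of 0.62 against 0.98. Over gene-rich cells 3 were higher and 15 lower (-0.77), and the largest differences over all cells were those of Ndufs1 (3.18) and Ndufa12 (2.74). In WT D1 against WT D2 6 were higher and 8 lower (-0.35, or 0.11).

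Cytochrome c (Cycs), the carrier between complexes III and IV, and the small ATP synthase proteins formed a list of which 5 genes were measured. All 5 were higher in KO D2 than in WT D2 over all cells (median 1.61) and 4 over gene-rich cells (1.37). The largest difference was that of Atpif1, the inhibitor that blocks the enzyme from running backward, with 1160 ± 973 CPM in KO D2 and 497 ± 487 CPM in WT D2 (2.25). In KO D1 against KO D2 4 of 5 were lower (-1.48). Usmg5 had 136 ± 137 CPM in KO D1 and 477 ± 512 CPM in KO D2 (-2.31), and Cycs had 69.4 ± 48.9 CPM in KO D1 and 205 ± 206 CPM in KO D2 (-1.90). Of the 5, 2 were higher and 1 lower in KO D1 than in WT D1, and none was called in WT D1 against WT D2.

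Genes that assemble complexes II to V were higher in 17 and lower in 1 of 35 in KO D2 against WT D2 over all cells (median 0.93, against 0.56 for all genes), led by the complex IV factors Cox14 (2.54) and Cox20 (2.44). Over gene-rich cells 6 were higher and 9 lower (median 0.31, against -0.39 for all genes). Of all genes 14.6% were higher and 31.9% lower there. Of 36 such genes 14 were higher and 6 lower in KO D1 than in WT D1, a share higher below the 49.6% of all genes, with Ttc19, a complex III factor, at 3.24 and Cox11, which helps insert copper, at -2.96. Over gene-rich cells 6 were higher and 11 lower. Between KO D1 and KO D2 5 of 36 were higher and 11 lower (-0.60; 5 and 17 over gene-rich cells), with Fastkd2, an RNA-binding protein of mitochondria, at 50.5 ± 68.8 CPM in KO D1 and 2.48 ± 6.55 CPM in KO D2 (2.63). In WT D1 against WT D2 2 of 34 were higher and 0 lower (0.14), and over gene-rich cells 8 higher and 7 lower.

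Enzymes of the citric acid cycle were higher in 9 of 12 in both knockout comparisons with WT cells over all cells, against 36.4% of all genes in KO D2 against WT D2 (median 2.24) and 49.6% in KO D1 against WT D1 (median 1.63). Over gene-rich cells 3 were higher and 2 lower in KO D2 against WT D2 (0.43), and 2 higher and 4 lower in KO D1 against WT D1 (0.10). In KO D2 against WT D2 the isocitrate dehydrogenase subunit Idh3b (2.76) and Dld (2.67) led, and in KO D1 against WT D1 Idh3a (2.79) and Ogdh (2.73). Between KO D1 and KO D2 4 were lower and 0 higher (-0.36). In WT D1 against WT D2 2 were higher and 2 lower, with Idh3g (-2.24) and Cs (-1.70), citrate synthase, furthest from 0. Of the 6 mitochondrially encoded subunits of complexes III to V, 0 were called in KO D2 against WT D2 over all cells (median -0.32). Over gene-rich cells 1 was higher and all 6 differences were above 0 (median 0.73), close to the median of 0.79 of the nuclear genes there. In KO D1 against WT D1 4 were lower over all cells (-1.34) and 0 over gene-rich cells (-0.28), and in KO D1 against KO D2 2 were lower over all cells (-0.81) and 1 over gene-rich cells (-0.68).

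Of the regulators of nuclear respiratory genes, Nrf1 had 0.05 ± 0.132 CPM in KO D2 and 42.7 ± 87.4 CPM in WT D2 cells (-2.04, or -3.43 over gene-rich cells). At that mean it was almost unread in KO D2, and a link to the subunits was not tested. In KO D1 Nrf1 had 14.9 ± 29.4 CPM, against 0.05 ± 0.132 CPM in KO D2 (1.65). The coactivator gene Ppargc1b had 51.4 ± 63.7 CPM in KO D2 and 4.24 ± 10.2 CPM in WT D2 (2.42). Tfam, which packages mitochondrial DNA, had 13 ± 31.7 CPM in KO D1 and 58 ± 77 CPM in KO D2 (-2.49). The SD over cells was larger than the mean in each of these values. Over the list 5 of 14 were higher and 1 lower in KO D2 against WT D2 and 6 of 13 higher and 0 lower in KO D1 against WT D1, shares higher that are close to or below the 36.4% and 49.6% of all genes. Over gene-rich cells 4 were higher and 4 lower in KO D2 against WT D2, and 2 higher and 3 lower in KO D1 against WT D1. Over all cells 4 of 14 were higher and 3 lower in KO D1 against KO D2, and 0 higher and 1 lower in WT D1 against WT D2.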

How the data were processed

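Each library held the cytosolic total RNA of 1 neuron, and per the labels' protocols the Nextera XT kit was used. The submitters' processing notes name Trimmomatic, STAR, featureCounts and the GRCm38 build, without versions, roles or settings. The authors deposited whole-number read counts per gene symbol, and a normalized signal table of 14067 symbols (44 of the 48 genes), which holds these counts times 1 factor per cell (0.373 to 51.5). Each table had 2 columns of no sample, which were not used.

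CPM, differences of mean log2(CPM + 1), summed counts with exact Poisson intervals and shares with Clopper-Pearson intervals were computed with Python 3.11.15, numpy 2.4.6, pandas 2.3.3 and scipy 1.17.1. TMM factors came from edgeR 4.0.16, near-identical copies from blastn 2.17.0, and exon lengths and positions from GENCODE vM21. All 48 genes were found there, 1 by an older name. The differences were tested on simulated counts, in which both groups had a common composition apart from genes changed on purpose. That test did not cover groups that differ in their share of gene-rich cells. No p-value was computed, since each group is 1 sample. For each comparison the 3 genes with the largest and the 3 with the smallest difference are named, with all 4 Sdh genes, the isoform families, the highest gene per complex and 2 genes per list. Further genes were named after their values were seen. One marker of the lists is not reported here. The genes and lists were chosen with earlier results of these data known. Alternatives were TMM factors, the normalized values, no filter, a pseudocount of 10, totals without mitochondrial genes and Rn18s-rs5, thinning, gene-rich cells, and leaving out single knockout cells or WT ages.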

Additional observations from a re-analysis of the deposited data

Results flagged for a closer look

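By Dixon's rule, 8 of 44 sets of values from the KO D1 and KO D2 groups held a single cell far from the others. Each set was a gene, a summed level or the ratio to complex I in 1 group. The rule's nominal rate of 1 in 20 is no yardstick here. The genes were chosen by their differences in these same data, and several values are 0. The values printed are log2(CPM + 1), and each of the 8 was the lowest of its group. KO D2 replicate 5, the KO D2 cell with the fewest genes with a read (2904), was at 0 for Atp5a1 (next lowest 6.75), at 0.52 for Atp5g3 (7.44), at 0 for Atp5h (6.17) and at 0 for Uqcrc1 (5.30). KO D2 replicate 4, which had the lowest summed level of its group (4741 CPM), was at 0 for Cox7a2 (next lowest 8.14), at 0 for Sdhd (5.77) and at 0 for Uqcrb (6.92). KO D1 replicate 5 was at 0 for Cox6a1 (6.31). Of the 48 genes, 32 had reads in KO D2 replicate 5, 33 in KO D2 replicate 4 and 33 in KO D1 replicate 5. Whether a transcript was missing from the cell or from its library was not tested.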

How the results depend on the processing

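For KO D1 against WT D1 the number of genes lower was 3, but 10 with the normalized values of the authors, 7 on summed counts, 15 over gene-rich cells and 5 on totals without mitochondrial genes and Rn18s-rs5. The number higher, 9, was 0 on summed counts and 1 over gene-rich cells, and the summed level was -1.37 with the normalized values. For KO D2 against WT D2 the number lower was 1 with the normalized values and 1 over gene-rich cells. Over gene-rich cells without the KO D2 cell of the highest summed level, an alternative chosen after seeing the data, 9 were higher and 2 lower. For WT D1 against WT D2 the number higher, 2, was 1 with TMM factors, 4 with the normalized values, 0 with a pseudocount of 10, 1 on summed counts, 4 over gene-rich cells and 4 with thinned counts. The number lower, 3, was 9 with the normalized values, 0 on summed counts and 1 over gene-rich cells. For KO D1 against KO D2 the number higher, 1, was 0 with a pseudocount of 10 and 0 over gene-rich cells. Apart from summed counts and gene-rich cells, no share of all genes called was computed for these alternatives. The cause of the shifts between them was not tested.

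A change of sign was counted only for named genes with a difference of at least 1 or at most -1 over all cells. In KO D1 against WT D1 these were Cyc1 (-0.95 on summed counts) and Sdhb (-0.23 on summed counts, -0.18 over gene-rich cells). In WT D1 against WT D2 they were Atp5g3 (0.0068 on summed counts) and Atp5h (0.24 over gene-rich cells), and in KO D1 against KO D2 Cox7a2l (-0.84 on summed counts). Smaller differences changed sign too. Uqcrh in WT D1 against WT D2 was 0.98 over all cells and -0.37 over gene-rich cells. Atp5h in KO D2 against WT D2 was -0.56 and 0.77. When each cell was left out in turn, the KO D1 against WT D1 median ranged from -0.11 to 0.65, with 7 to 12 higher, 0 to 8 lower and the summed level at -0.72 to -0.24. The KO D2 against WT D2 median ranged from 0.93 to 1.80, with 19 to 32 higher, 0 to 1 lower and the summed level at 0.07 to 0.61. The KO D1 against KO D2 median ranged from -1.51 to -0.71, with 0 to 2 higher, 15 to 31 lower and the summed level at -1.34 to -0.80. When each age was left out, the WT D1 against WT D2 median ranged from -0.49 to 0.01, with 2 to 5 higher, 4 to 10 lower and the summed level at -0.32 to -0.17. The normalized values moved the median of all genes by more than 0.1 in KO D1 against WT D1 (1.13, against 0.98) and in KO D2 against WT D2 (0.75, against 0.56), and TMM factors in KO D1 against KO D2 (0.19, against 0.29). Of the other values recomputed, 237 group values and 390 values of single genes stayed within the spread between cells or 1.5 times the count.

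No paired analysis was possible because the replicate numbers only name the cells, and no label ties cells of different groups to an animal, litter or day. Depth limits genes read in few cells, where the difference of mean log2(CPM + 1) follows the share of cells without a read.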

Other observations

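The 1 KO D1 cell that failed quality control, with 950010 counts and reads in 995 genes, had reads of 11 of the 48 genes and a summed level of 15542 CPM. The 6 KO D1 cells that passed had reads of 31 to 39 of the 48 genes and a summed level of 2875 to 15014 CPM.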
